A study of Homo sapiens with 9 samples.

Results

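The 38 genes described here encode the transcription factor ATF4, the factors and stress genes that act with it, and the proteins that make, import and load amino acids. They comprise 10 stress factors, 8 enzymes of serine, one-carbon, proline and asparagine synthesis, 8 amino acid transporters and 12 cytosolic aminoacyl-tRNA synthetases. They were chosen by name, with earlier results of these data known. Each of the 38 was found once, by its Ensembl identifier, among the 60609 genes of the count tables, and 38 of 38 passed the filter on low counts.

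RNA was sequenced from MCF-10A, an immortalised, non-tumorigenic line of human breast epithelium, in 3 genotypes with 3 libraries each: parental cells (WT), a knock-in of the E545K change and a knock-in of the H1047R change of PIK3CA, which encodes the catalytic alpha subunit of PI 3-kinase. The parental cells were grown in medium with epidermal growth factor (EGF) at 20 ng/ml and both knock-in lines in medium lacking it (0 ng/ml), so the history of EGF and the knock-ins cannot be told apart in comparisons with WT. What the 3 genotypes shared was 5% horse serum, cholera toxin at 100 ng/ml, hydrocortisone at 0.5 µg/ml and insulin at 10 µg/ml in the maintenance medium, growth to 80% confluence, and a final 24 h with 0.2 ng/ml EGF, 1% charcoal-stripped serum and the same insulin, hydrocortisone and cholera toxin. The number of clones behind each knock-in line is not given in the sources used here, nor is it said that replicates were separate cultures, so the p-values speak only to how far these libraries scatter, a spread that may be technical.

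ATF4 is the main effector of the integrated stress response, in which kinases sensing amino acid shortage, unfolded proteins in the endoplasmic reticulum, haem deficiency or double-stranded RNA phosphorylate the translation factor eIF2. Phosphorylated eIF2 lowers general protein synthesis but lets ribosomes reach the ATF4 reading frame past its short upstream frames, so much of ATF4's control is exerted on its protein and is not visible in its mRNA. mTORC1, the growth kinase complex downstream of PI 3-kinase, also raises ATF4 protein. With C/EBP partners, ATF4 binds composite C/EBP-ATF response elements and activates genes of amino acid synthesis, uptake and tRNA charging.

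The core of that element, TGATGNAA (TTNCATCA when read on the opposite strand), was searched on both strands in windows of 250 bases before to 50 bases after each gene's start (RefSeq, GRCh38.p14). The table held 32 of the 38 genes, without PSPH, SHMT2, PYCR1, SLC7A11, YARS1 and LARS1, and 10 of the 32 windows (31.2%) held a match, against 1270 of 35116 windows in the table (3.62%) and 598 of 22198 windows of protein-coding genes (2.69%). By role, a match was found in 6 of 10 synthetases (60%), 2 of 7 transporters (28.6%), 1 of 5 synthesis enzymes (20.0%) and 1 of 10 stress factors (10.0%). A match says only that these letters occur in the window. The 38 genes were chosen as genes of ATF4 and of amino acid supply, so their higher share is not an independent result. The stretches that hold them are printed here because the same genes recur in the results, each 5′ to 3′ on the strand of its gene, with the match in capitals. Distances are those of the first letter of the match, so the matches of MARS1 and CARS1 run across the start.
CHAC1, chr15:40953222-40953309, 209 bases before the start: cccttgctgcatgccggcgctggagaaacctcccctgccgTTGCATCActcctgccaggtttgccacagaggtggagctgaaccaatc
ASNS, chr7:97872429-97872516, 68 bases before the start: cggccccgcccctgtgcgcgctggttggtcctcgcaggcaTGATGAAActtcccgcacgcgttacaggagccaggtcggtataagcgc
AARS1, chr16:70289646-70289733, 187 bases before the start: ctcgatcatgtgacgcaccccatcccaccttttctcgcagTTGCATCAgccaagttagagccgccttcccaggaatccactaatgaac
IARS1, chr9:92293698-92293750, 13 bases before the start: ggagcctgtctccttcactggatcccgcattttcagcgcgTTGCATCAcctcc
MARS1, chr12:57488054-57488081, 4 bases before the start: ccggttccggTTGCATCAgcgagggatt
CARS1, chr11:3057408-3057435, 2 bases before the start: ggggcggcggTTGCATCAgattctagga
TARS1, chr5:33440957-33440984, 2 bases after the start: cgcctttcgaTTGCATCAgctggtccag
NARS1, chr18:57621805-57621832, 14 bases after the start: ctacgctctcTGATGCAAcgccggaatc
SLC7A1, chr13:29595664-29595691, 7 bases after the start: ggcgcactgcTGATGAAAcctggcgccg
SLC3A2, chr11:62881726-62881748, 37 bases after the start: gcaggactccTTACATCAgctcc

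Levels are given as CPM, counts divided by the library size after scaling by the trimmed mean of M-values (TMM), and differences as log2 fold changes ± an approximate standard error from edgeR's quasi-likelihood test. A gene was called at a Benjamini-Hochberg adjusted p under 0.05 over the 26412 genes tested. Total counts were 95091894 to 136132315 per library in WT and E545K and 377093507 to 605972919 in H1047R, and H1047R libraries stood in a table of their own, so table, depth and genotype cannot be told apart there. Over the 38 genes the median coefficient of variation between libraries was 1.96% in WT, 1.72% in E545K and 8.68% in H1047R. H1047R replicate 1 was the highest library of its genotype for 32 of the 38 genes and replicate 3 the lowest for 33. For each gene the model shares 1 estimate of spread over the 9 libraries, so its standard errors were much alike between comparisons. For TARS1 they were 0.061 in both comparisons with WT, with library SDs of 0.53 CPM in E545K and 11.7 CPM in H1047R. Standard errors and p-values may thus understate the scatter of H1047R and overstate that of WT and E545K. Markers of basal breast epithelium were present in the 3 genotypes (8 of 8 at a mean of at least 1 CPM, summed level 35600 to 36400 CPM in WT, 30800 to 31400 in E545K and 35100 to 39600 in H1047R). The 5 general epithelial markers, KRT8 and KRT18 among them, summed to 1940 to 2030 CPM in WT but to 923 to 930 in E545K and 976 to 1120 in H1047R. Luminal markers summed to 75.7 to 101, 66.1 to 67.6 and 153 to 173 CPM in the same order, with 5, 4 and 4 of 8 at 1 CPM or more, and fibroblast markers to 93.8 to 97.4, 67.1 to 70.1 and 69.5 to 85.9 CPM, with 2 of 7. Endothelial markers summed to 8.46 to 10.3, 10.5 to 12.2 and 22.0 to 23.7 CPM, nearly all of it KDR, the 1 of 5 at 1 CPM or more, and leukocyte markers to 16 to 16.6, 11.9 to 12.6 and 6.96 to 8.60 CPM, with 2 of 6. The part of these shifts in the results was not tested. WT replicate 1 held the luminal markers TFF1 at 10.0 CPM and PRLR at 1.84 CPM, against 0.507 and 0.742 CPM of TFF1 and 0.222 and 0.244 CPM of PRLR in the other WT libraries. Reads over exons shared with other genes are counted for each gene, and such exons hold 33.6% of the exon bases of MTHFD2, 29.7% of PYCR1, 23.8% of SLC1A5, 22.1% of ATF5, 14.6% of VLDLR and 13.3% of MARS1, with larger shares in DDIT3, DDIT4 and ASNS, given beside those genes, and smaller ones in the other members. Gene counts do not show which base of PIK3CA a read carries, so they do not check the genotype labels.

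In E545K cells most of the 38 genes were higher than in WT, with the amino acid transporters as the main exception. The test called 24 genes higher and 7 lower, which is 81.6% of the 38 beside 36.6% of all genes tested, and the median log2 difference of the 38 was 0.21 beside 0.003 over all genes. A stricter filter kept 16306 genes, at 1 CPM or more on average and in at least 3 libraries. With it 27 members were called higher and 7 lower, beside 57% of the genes it kept. The largest rises were those of CHAC1, PSAT1, SLC7A11, GARS1, PSPH and ASNS, between 4.5-fold and 2.14-fold, and these 6 were the members called higher by at least 2-fold (4.52% of all genes were, and 7.1% were in either direction). The largest fall was that of DDIT4, to 0.343 times the WT level, and it was the 1 member called lower by at least 2-fold, as 2.58% of all genes were. For 29 members the 3 E545K libraries lay above the 3 WT libraries and for 8 below, leaving TARS1 as the gene whose libraries overlapped (54.2% of all genes did not overlap in this comparison). Without WT replicate 1, the library with the luminal markers, 21 members were called higher and 7 lower, beside 30.4% of the genes tested then. In a fit of only the WT and E545K libraries, 29 members were called higher and 8 lower, beside 53.1% of the genes tested in it. The wider spread of H1047R does not enter that fit. Its further calls were ATF5 (adjusted p = 0.00157), ALDH18A1 (0.000957), LARS1 (0.0171), SLC6A9 (0.00685), STC2 (0.0211) and, lower, PYCR1 (0.0245).

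In H1047R cells the same 38 genes went both ways. The test called 12 higher and 18 lower than in WT, or 78.9% of the 38 beside 55.5% of all genes, and their median log2 difference was −0.05 beside 0.02 over all genes. With the stricter filter 15 were called higher and 18 lower, beside 72.7% of the genes it kept. VLDLR, CHAC1 and PSAT1 were called higher by at least 2-fold (10% of all genes were), by 7.2-fold, 4.67-fold and 2.24-fold. The heavy and light chain of the large neutral amino acid transporter were called lower by at least 2-fold (7.39% of all genes were): SLC7A5 reached 0.262 times and SLC3A2 0.38 times the WT level. In either direction 17.4% of all genes were called by at least 2-fold. Libraries did not overlap for 11 members that were higher and 18 that were lower, beside 60.1% of all genes. Without H1047R replicate 3, the library that was most often lowest, 16 members were called higher and 17 lower, beside 55.5% of the genes tested then. Without replicate 1, 10 were called higher and 19 lower, beside 59% of the genes tested.

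The knock-in lines also differed from each other. Tested directly, 27 of the 38 genes were lower in H1047R than in E545K and 7 were higher, or 89.5% called beside 53.2% of all genes, with a median log2 difference of −0.42 beside 0.02 over all genes. Under the stricter filter 28 were lower and 7 higher, beside 71.1% of the genes it kept. GARS1, PHGDH, SLC7A5, ASNS, PSPH and SLC3A2 were lower by at least 2-fold (7.24% of all genes were), and VLDLR and DDIT4 were higher by at least 2-fold (7.74% of all genes were, and 15% in either direction). The 7 that were higher were ATF5, DDIT4, CEBPB, CEBPG, VLDLR, SLC7A1 and SLC6A9, and the 4 that were not called were CHAC1, STC2, SARS1 and NARS1. Libraries of the knock-in lines did not overlap for 7 members that were higher and 27 that were lower in H1047R, beside 58.8% of all genes. The comparisons with WT share the WT libraries, so values of both are given side by side below and not combined.

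**Figure D1:**
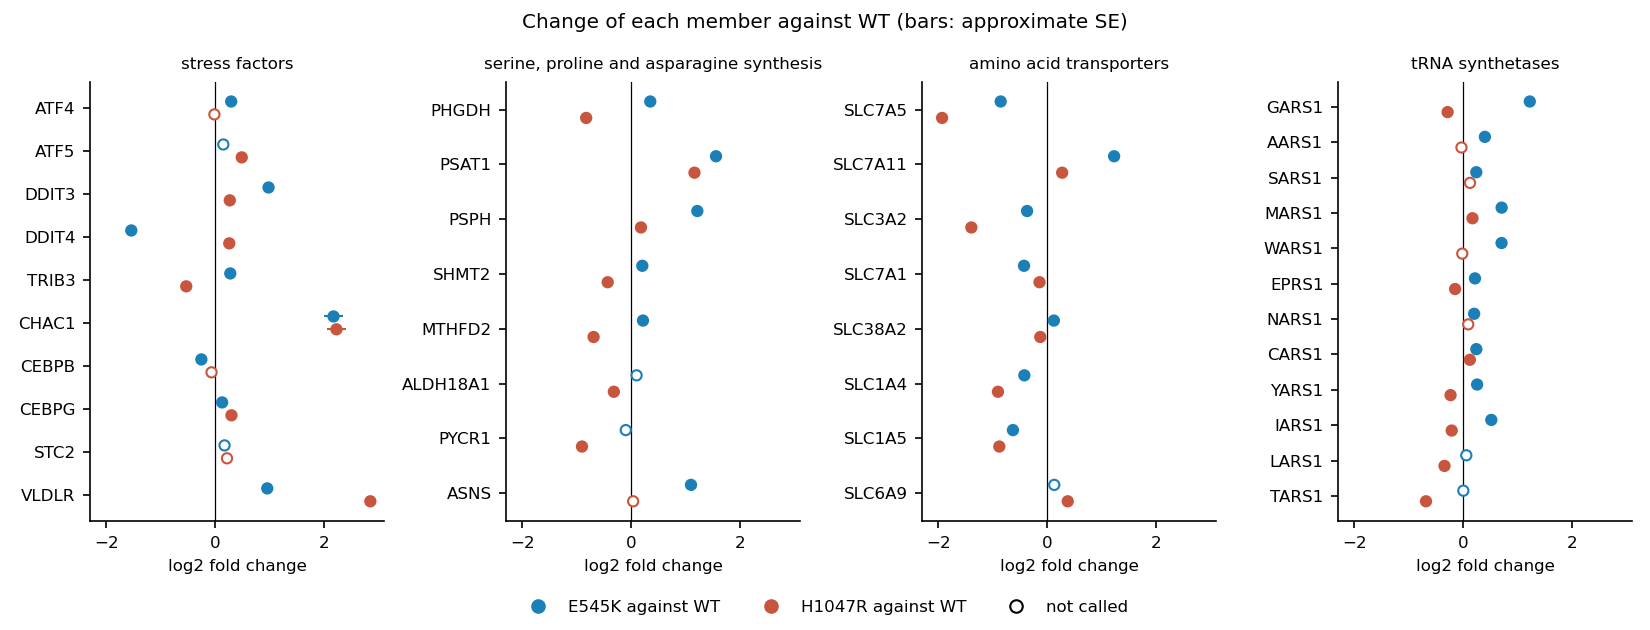
Log2 fold change against WT (horizontal axis) of each of the 38 genes, in 4 panels by role, for E545K (blue) and H1047R (red). Filled points passed the test at an adjusted p under 0.05, open points did not, and bars show the approximate SE, which is mostly narrower than the point. In E545K 24 genes were called higher and 7 lower, and in H1047R 12 higher and 18 lower.

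Of the 10 stress factors, 6 were called higher and 2 lower in E545K (median log2 difference 0.22), and 6 higher and 1 lower in H1047R (median 0.26). That is 80% and 70% called, beside 36.6% and 55.5% of all genes. Of the genes that the stricter filter kept, 57% and 72.7% were called. CHAC1, DDIT3 and VLDLR rose in both knock-in lines, while DDIT4 and TRIB3 moved in opposite directions in them. ATF4 mRNA itself (chr22:39519695-39522685, + strand on hg38, as for positions below) stood at 210.0, 217 and 212 CPM in the WT libraries, 261, 262 and 258 in those of E545K and 224, 214 and 193 in those of H1047R. The E545K libraries lay above the others, while WT and H1047R overlapped. The log2 difference from WT was 0.29 ± 0.049 (adjusted p = 0.000234) in E545K and −0.02 ± 0.048 (adjusted p = 0.783) in H1047R, and H1047R was −0.31 ± 0.048 (adjusted p = 7.68e-05) against E545K. ATF5, a related factor that is also controlled at translation, was highest in H1047R, with 28.2, 27.7 and 26.5 CPM in the WT libraries, 31.6, 31.2 and 28.4 in those of E545K and 41.9, 37.2 and 36.2 in those of H1047R. Against WT it differed by 0.48 ± 0.059 (adjusted p = 5.17e-06) in H1047R, and its difference of 0.15 ± 0.06 (adjusted p = 0.0729) in E545K did not pass the test with the 9 libraries. It did without E545K replicate 3 (adjusted p = 0.0452), H1047R replicate 1 (0.0137) or H1047R replicate 3 (0.0292). CEBPB and CEBPG encode C/EBP proteins that pair with ATF4, and they went separate ways in E545K. CEBPB averaged 170.2, 142 and 162 CPM in WT, E545K and H1047R, and its log2 difference from WT was −0.26 ± 0.039 (adjusted p = 9.49e-05) in E545K and −0.07 ± 0.039 (adjusted p = 0.141) in H1047R. CEBPG averaged 43.5, 47.5 and 53.4 CPM and was called higher in H1047R (0.30 ± 0.046, adjusted p = 5.73e-05). In E545K its difference was 0.12 ± 0.046 at an adjusted p of 0.0481, which became 0.0564 to 0.186 when any of the 6 WT and E545K libraries was left out. With all 9 libraries it was 0.0504 with DESeq2 size factors, 0.0528 with the replicate number as a block, 0.066 with DESeq2 and 0.126 without the filter on low counts, so the call was not stable. The fit of only the WT and E545K libraries kept it.

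DDIT3 (CHOP), a factor of prolonged stress that promotes cell death, rose in both knock-in lines and rose more in E545K. It held 4.35, 4.18 and 4.10 CPM in the WT libraries, 8.21, 8.14 and 8.54 in those of E545K and 5.11, 5.06 and 5.02 in those of H1047R, without overlap between the 3 genotypes, and its log2 difference from WT was 0.98 ± 0.069 (adjusted p = 3.4e-08) in E545K and 0.27 ± 0.067 (adjusted p = 0.00358) in H1047R. H1047R was −0.71 ± 0.065 (adjusted p = 2.91e-07) against E545K. 39.6% of its exon bases lie in exons of other genes, MARS1 among them, and counting ignored strand, so part of its counts may be theirs. TRIB3, a pseudokinase that dampens ATF4 and AKT, was higher than WT in E545K (0.27 ± 0.065, adjusted p = 0.0039) and lower in H1047R (−0.53 ± 0.065, adjusted p = 4.7e-06), with means of 20.5, 24.8 and 14.1 CPM in WT, E545K and H1047R. CHAC1, an enzyme that degrades glutathione and is a late marker of the ATF4 and CHOP response, was scarce in WT, at 0.535, 0.455 and 0.350 CPM. It reached 2.10, 1.96 and 2.04 CPM in E545K and 2.25, 2.33 and 1.76 CPM in H1047R. The 6 knock-in libraries lay above the 3 WT libraries and overlapped each other. The log2 difference from WT was 2.17 ± 0.18 (adjusted p = 1.96e-07) in E545K and 2.22 ± 0.17 (adjusted p = 4.33e-08) in H1047R, and between the knock-in lines it was 0.05 ± 0.15 (adjusted p = 0.793).

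DDIT4 (REDD1), which restrains mTORC1 under stress, moved in the opposite direction in the knock-in lines. It stood at 508, 510.1 and 505 CPM in the WT libraries, 169, 175 and 179 in those of E545K and 637, 588 and 593 in those of H1047R, with no overlap between genotypes. In E545K it fell by 1.54 ± 0.042 in log2 units (adjusted p = 1.82e-12). It rose by 0.26 ± 0.041 in H1047R (adjusted p = 8.23e-05) and was 3.48 times as high in H1047R as in E545K. Of its exon bases 41.2% are shared with a transcript of another identifier. VLDLR, a lipoprotein receptor induced by ATF4 in stressed cells, rose in steps without overlap. It held 1.74, 1.52 and 1.45 CPM in the WT libraries, 3.18, 3.16 and 2.83 in those of E545K and 10.9, 11.7 and 11.6 in those of H1047R, which gives log2 differences from WT of 0.95 ± 0.095 (adjusted p = 1.43e-06) in E545K and 2.85 ± 0.09 (adjusted p = 1.74e-12) in H1047R. STC2, a secreted glycoprotein of the stress response, was not called in any comparison, at means of 7.43, 8.35 and 8.62 CPM. Its difference from WT in H1047R (0.21, adjusted p = 0.0669) passed without H1047R replicate 2 (0.0292) or replicate 3 (0.0187), and that in E545K (0.17, adjusted p = 0.202) without H1047R replicate 1 (0.0412). Per exon length, DDIT4 was the highest of the 10 stress factors in WT (449.8 ± 1.28 TPM, a level per exon length, SD of 3 libraries) and in H1047R (385 ± 16.9), and ATF4 was the highest in E545K (199 ± 4.86). TPM is used here to rank genes within a genotype only, since it is not TMM-scaled. The ranks depend on the exon lengths, which cover all annotated exons of a gene and can exceed the length of its transcripts.

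Most of the enzymes of amino acid synthesis were called higher in E545K and most were called lower in H1047R. In E545K 6 of 8 were called higher and none lower (median log2 difference 0.28), and PYCR1 (−0.10) and ALDH18A1 (0.10) were not called. In H1047R 2 were higher and 5 lower than in WT (median −0.38), and the 8 of them were called lower in H1047R than in E545K (median −0.86). The called shares were 75%, 87.5% and 100% in the 3 comparisons, beside 36.6%, 55.5% and 53.2% of all genes. The 3 steps that make serine from a glycolytic intermediate did not move alike in H1047R. PHGDH, which catalyses the first step, held 42.0, 40.7 and 41.9 CPM in the WT libraries, 53.3, 53.5 and 51.7 in those of E545K and 24.7, 22.7 and 22.7 in those of H1047R. PSAT1, the aminotransferase of the second step, held 23.2, 23.5 and 21.8 CPM in the WT libraries, 66.7, 66.5 and 68.4 in those of E545K and 57.5, 49.8 and 46.0 in those of H1047R. PSPH, the phosphatase of the last step, held 17.2, 16.1 and 16.5 CPM in the WT libraries, 37.2, 40.2 and 38.2 in those of E545K and 20.8, 18.4 and 17.2 in those of H1047R. In E545K each of the 3 lay above WT without overlap, whereas in H1047R PHGDH lay below WT, PSAT1 above it, and PSPH overlapped it.

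The log2 difference of PHGDH was 0.35 ± 0.045 (adjusted p = 1.97e-05) in E545K and −0.83 ± 0.045 (adjusted p = 6.12e-10) in H1047R. That of PSAT1 was 1.56 ± 0.068 (adjusted p = 1.99e-10) in E545K and 1.16 ± 0.067 (adjusted p = 1.31e-09) in H1047R. PSPH rose in E545K (1.21 ± 0.066, adjusted p = 2.28e-09). Its difference in H1047R was 0.18 ± 0.065 at an adjusted p of 0.0311, and it no longer passed when WT replicate 2 (adjusted p = 0.117), WT replicate 3 (0.0949) or H1047R replicate 1 (0.103) was left out. The balance of the first steps differed between genotypes. The ratio of PSAT1 to PHGDH counts per exon base was 2.30 ± 0.122 in WT, 5.31 ± 0.187 in E545K and 9.11 ± 0.632 in H1047R (mean ± SD of 3 libraries). The libraries of the 3 genotypes did not overlap in this ratio. Exon length covers all annotated exons of a gene (9217 bases for PHGDH and 2206 for PSAT1). Such ratios are therefore compared between genotypes only and do not count transcripts.

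ASNS, which makes asparagine from aspartate and glutamine and is a classical ATF4 target, was higher than WT in E545K. It held 15.5, 14.9 and 14.7 CPM in the WT libraries, 31.2, 33.8 and 31.5 in those of E545K and 17.4, 15.6 and 13.2 in those of H1047R, with WT and H1047R overlapping. The log2 difference was 1.10 ± 0.081 (adjusted p = 5.78e-08) in E545K and 0.03 ± 0.08 (adjusted p = 0.748) in H1047R, and the latter was 0.14 with an adjusted p of 0.0474 without H1047R replicate 3 and −0.06 without replicate 1. Of its exon bases 49.3% are shared with a transcript of another identifier. In the mitochondrial folate pathway, SHMT2 converts serine to glycine and MTHFD2 oxidises the one-carbon unit so released. SHMT2 averaged 108, 124 and 79.8 CPM in WT, E545K and H1047R, and MTHFD2 averaged 52.5, 60.9 and 32.5 CPM. Both were lower than WT in H1047R (SHMT2 −0.43 ± 0.058, adjusted p = 1.33e-05; MTHFD2 −0.69 ± 0.074, adjusted p = 1.25e-06). Their small rises in E545K, 0.20 at an adjusted p of 0.0131 and 0.21 at 0.0353, were less firm. That of SHMT2 was lost without WT replicate 3 (0.083) or E545K replicate 3 (0.0679), and that of MTHFD2 without any of the 6 WT and E545K libraries (0.0763 to 0.125). Both calls were kept in the fit of only the WT and E545K libraries.

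ALDH18A1 opens and PYCR1 closes the synthesis of proline from glutamate. Both were lower in H1047R than in WT, ALDH18A1 by a log2 value of −0.32 ± 0.05 (adjusted p = 5.73e-05) and PYCR1 of −0.91 ± 0.062 (adjusted p = 9.03e-09). PYCR1 held 27.4, 25.7 and 25.7 CPM in the WT libraries, 24.1, 24.2 and 25.2 in those of E545K and 15.5, 13.7 and 12.9 in those of H1047R. ALDH18A1 held 70.6, 68.0 and 69.0 CPM in the WT libraries, 73.7, 74.0 and 74.3 in those of E545K and 59.5, 55.7 and 51.0 in those of H1047R. The H1047R libraries were the lowest for both genes, without overlap. In E545K neither passed the test, at 0.10 ± 0.05 (adjusted p = 0.154) for ALDH18A1 and −0.10 ± 0.062 (adjusted p = 0.233) for PYCR1, and that of ALDH18A1 passed without H1047R replicate 1 (0.0436) or replicate 3 (0.0236). Per exon length, SHMT2 was the highest of the 8 enzymes in WT (42.7 ± 1.35 TPM) and PSAT1 the highest in E545K (58.6 ± 1.68) and H1047R (30.1 ± 1.57).

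**Figure D2:**
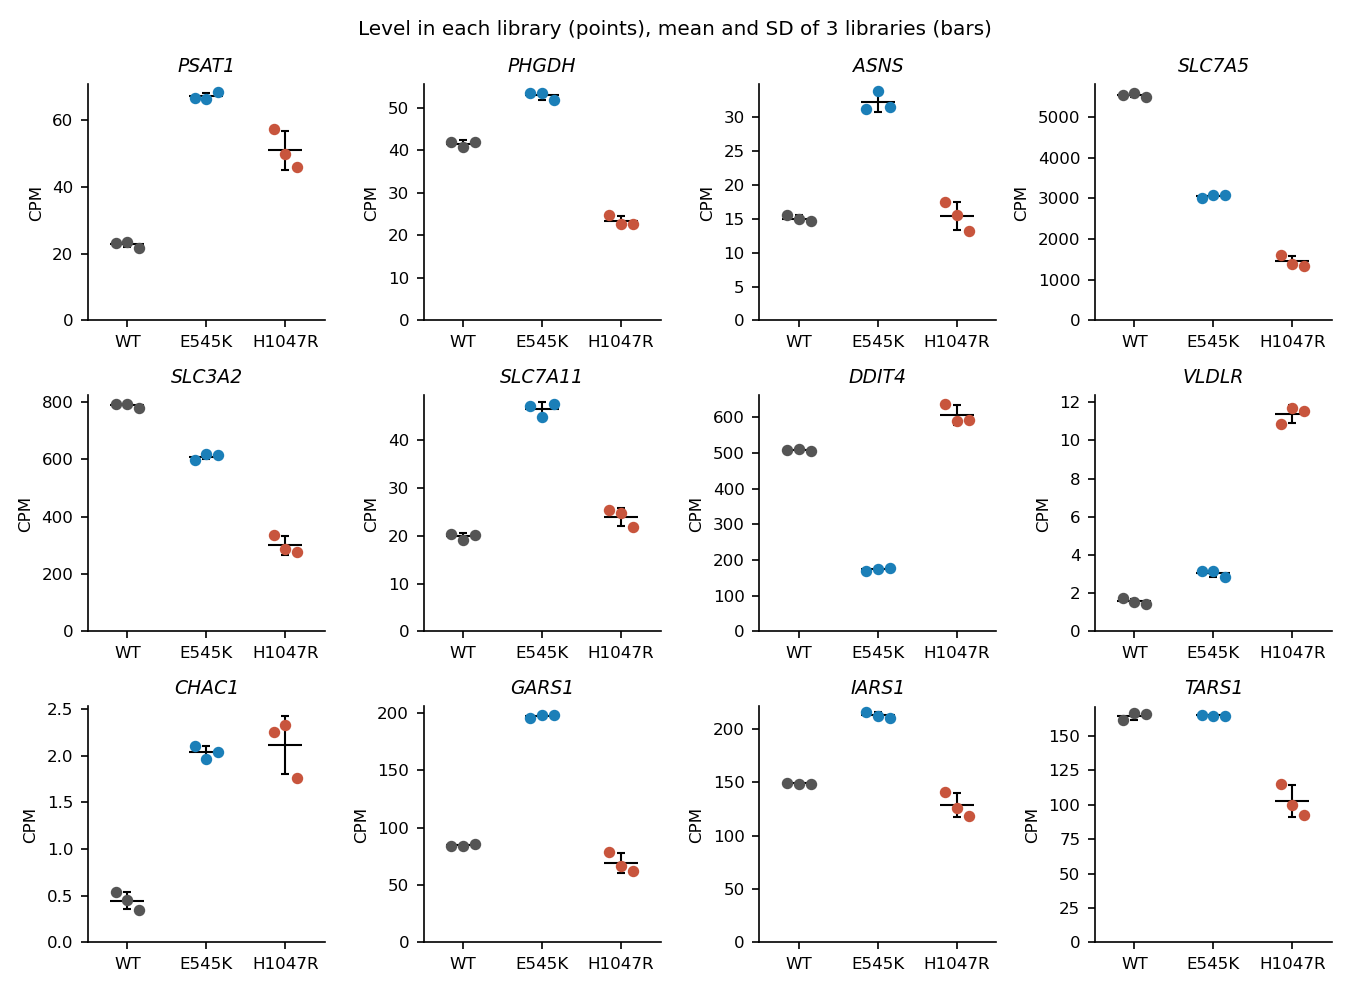
CPM (vertical axis, from 0) of 12 of the 38 genes in each of the 9 libraries. Points are libraries, and the bar and whiskers are the mean and SD of 3 libraries per genotype. PSAT1 and CHAC1 were above WT in both knock-in lines, PHGDH above WT in E545K and below it in H1047R, SLC7A5 and SLC3A2 lower in steps from WT to E545K to H1047R, and DDIT4 lowest in E545K.

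Of the 4 roles, the transporters had more falls than rises in both knock-in lines, and the fewest rises in E545K. In E545K 5 of 8 were called lower and 2 higher (median log2 difference −0.40), and in H1047R 6 were lower and 2 higher (median −0.51). This was 87.5% and 100% called, beside 36.6% and 55.5% of all genes. SLC7A5 (LAT1) imports leucine and other large neutral amino acids and had the highest mean of the 38 genes per exon length in each genotype. In H1047R that mean was close to that of DDIT4 (396 ± 18.9 beside 385 ± 16.9 TPM, SD of 3 libraries). SLC7A5 held 5534, 5579 and 5477 CPM in the WT libraries, 2999.6, 3081 and 3084 in those of E545K and 1615, 1388 and 1344 in those of H1047R. SLC3A2 (CD98), the heavy chain that carries SLC7A5 and several related light chains to the membrane, held 793, 792 and 780.0 CPM in the WT libraries, 598, 617 and 614 in those of E545K and 337, 288 and 275 in those of H1047R. For both genes each E545K library was below each WT library, and each H1047R library below each E545K library. In E545K SLC7A5 fell by 0.86 ± 0.055 in log2 units (adjusted p = 1.31e-08), and in H1047R it fell by 1.93 ± 0.057 (adjusted p = 8.43e-13). For SLC3A2 the log2 differences were −0.37 ± 0.058 (adjusted p = 0.000138) in E545K and −1.39 ± 0.059 (adjusted p = 4.66e-11) in H1047R. The ratio of SLC7A5 to SLC3A2 counts per exon base was 7.62 ± 0.0367 in WT, 5.45 ± 0.0189 in E545K and 5.25 ± 0.0481 in H1047R (mean ± SD of 3 libraries). The light chain thus lost more than the heavy chain. The libraries of the 3 genotypes did not overlap in this ratio either.

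SLC7A11 (xCT), the cystine importer that also pairs with SLC3A2 and feeds glutathione synthesis, went the other way. It held 20.3, 19.1 and 20.2 CPM in the WT libraries, 47.1, 45 and 47.6 in those of E545K and 25.4, 24.9 and 21.9 in those of H1047R, and the 3 genotypes did not overlap. Its log2 difference was 1.23 ± 0.058 (adjusted p = 4.86e-10) in E545K and 0.27 ± 0.057 (adjusted p = 0.000812) in H1047R. The ratio of SLC7A11 to SLC3A2 counts per exon base was 0.0135 in WT, 0.0410 in E545K and 0.0431 in H1047R. The knock-in lines overlapped in this ratio but not with WT. Within the single carriers, SLC1A5 (ASCT2) takes up glutamine and its relative SLC1A4 (ASCT1) alanine, serine and cysteine. SLC1A5 held 311, 314 and 310.4 CPM in the WT libraries, 199, 199.9 and 205 in those of E545K and 171, 171 and 167 in those of H1047R. SLC1A4 held 8.74, 8.39 and 8.19 CPM in the WT libraries, 6.27, 6.19 and 6.47 in those of E545K and 4.79, 4.40 and 4.34 in those of H1047R. Both were lower in E545K than in WT and lower again in H1047R, without overlap. The log2 differences of SLC1A5 were −0.63 ± 0.035 (adjusted p = 2.86e-09) in E545K and −0.88 ± 0.035 (adjusted p = 2.5e-11) in H1047R, and those of SLC1A4 were −0.42 ± 0.07 (adjusted p = 0.000216) and −0.91 ± 0.068 (adjusted p = 2.57e-08).

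SLC7A1 (CAT1), which imports arginine and lysine, was lowest in E545K, with means of 229, 170.1 and 207 CPM in WT, E545K and H1047R. It differed from WT by −0.43 ± 0.039 (adjusted p = 6.22e-07) in E545K and by −0.14 ± 0.039 (adjusted p = 0.00604) in H1047R. The call in H1047R was lost without the filter on low counts (−0.11, adjusted p = 0.0766). SLC38A2 (SNAT2), a sodium-coupled carrier of small neutral amino acids, averaged 577, 627 and 528 CPM. Its rise in E545K (0.12 ± 0.04, adjusted p = 0.0288) was lost without any of the 6 WT and E545K libraries (adjusted p 0.0804 to 0.130), but kept in the fit of only these 6. Its fall in H1047R (−0.13 ± 0.04, adjusted p = 0.0137) was lost without WT replicate 3 (0.065). Both calls of SLC38A2 were also lost without the filter on low counts (adjusted p = 0.103 in E545K and 0.128 in H1047R). SLC6A9 (GLYT1), a glycine carrier, averaged 21.0, 23.0 and 27.3 CPM and was higher than WT in H1047R (0.38 ± 0.059, adjusted p = 6.6e-05). In E545K its difference of 0.13 had an adjusted p of 0.117, which was 0.0283 without H1047R replicate 1 and 0.0431 without H1047R replicate 3, libraries that enter only the shared estimate of spread, the scaling and the filter. Per exon length SLC7A5 was the highest of the 8 transporters in each genotype, at 2113 ± 14.4 TPM in WT, 1234 ± 14.9 in E545K and 396 ± 18.9 in H1047R, and SLC1A4 the lowest.

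The cytosolic tRNA synthetases attach each amino acid to its tRNA before translation. Of the 12, 10 were called higher and none lower in E545K than in WT, with a median log2 difference of 0.25, and LARS1 (0.06 ± 0.04, adjusted p = 0.311) and TARS1 (adjusted p = 0.988, libraries overlapping) were not called. In H1047R 2 were higher (MARS1 and CARS1), 6 lower (GARS1, EPRS1, YARS1, IARS1, LARS1 and TARS1) and 4 not called (AARS1, SARS1, WARS1 and NARS1), with a median of −0.09. Compared directly, 10 of the 12 were lower in H1047R than in E545K, and the differences of the 12 ranged from −1.51 to −0.11. Shares called were 83.3% in E545K, 66.7% in H1047R and 83.3% between them, beside 36.6%, 55.5% and 53.2% of all genes. Among the genes that the stricter filter kept, the shares were 57%, 72.7% and 71.1%. Among the 6 with a match to TGATGNAA in their window, AARS1, MARS1, NARS1, CARS1 and IARS1 were called higher in E545K and TARS1 was not. Among the 4 synthetases whose window held no match, GARS1, SARS1, WARS1 and EPRS1, each was called higher.

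GARS1, the glycine enzyme (chr7:30594838-30634033, + strand), had the largest rise of the 12. It stood at 84.2, 83.9 and 85.5 CPM in the WT libraries, 196, 198 and 198 in those of E545K and 79.1, 66.5 and 62.2 in those of H1047R, so that E545K lay far above the other genotypes and H1047R slightly below WT. Its log2 difference was 1.22 ± 0.067 (adjusted p = 2.21e-09) in E545K and −0.29 ± 0.066 (adjusted p = 0.00171) in H1047R. MARS1 and WARS1, the methionine and tryptophan enzymes, followed in E545K. MARS1 held 48.5, 47.9 and 47.6 CPM in the WT libraries, 78.1, 79.1 and 77.6 in those of E545K and 57.6, 53.3 and 51.0 in those of H1047R, and WARS1 held 37.8, 39.9 and 38 CPM in the WT libraries, 61.5, 63.2 and 63.7 in those of E545K and 42.8, 37.2 and 34.2 in those of H1047R. MARS1 rose by 0.71 ± 0.046 (adjusted p = 1.37e-08) in E545K and by 0.17 ± 0.045 (adjusted p = 0.00513) in H1047R. WARS1 rose by 0.70 ± 0.066 (adjusted p = 7.34e-07) in E545K, and its H1047R libraries lay on both sides of WT (−0.02 ± 0.065, adjusted p = 0.837).

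IARS1, the isoleucine enzyme, held 149.7, 149 and 148 CPM in the WT libraries, 216, 212 and 209.8 in those of E545K and 141, 126 and 119 in those of H1047R. It was above WT in E545K (0.52 ± 0.052, adjusted p = 1.79e-06) and below it in H1047R (−0.21 ± 0.052, adjusted p = 0.00286). AARS1, the alanine enzyme, held 69.7, 66.6 and 66.6 CPM in the WT libraries, 90.7, 90.3 and 86.2 in those of E545K and 71.2, 65.3 and 61.8 in those of H1047R. It rose in E545K (0.40 ± 0.05, adjusted p = 1.79e-05) and overlapped WT in H1047R (−0.03 ± 0.05, adjusted p = 0.604). The 5 remaining rises in E545K were small, between 0.20 for NARS1 (asparagine) and 0.25 for YARS1 (tyrosine), with SARS1 (serine), EPRS1 (glutamate and proline) and CARS1 (cysteine) between them, and in each of them the 3 E545K libraries lay above the 3 WT libraries. LARS1 (leucine) and TARS1 (threonine) did not pass the test in E545K, at 0.06 ± 0.04 (adjusted p = 0.311) and 0.00 ± 0.061 (adjusted p = 0.988), and fell in H1047R (−0.34 ± 0.04, adjusted p = 3.2e-06 and −0.68 ± 0.061, adjusted p = 1.81e-07). TARS1 held 161, 167 and 166 CPM in the WT libraries, 165, 165 and 164 in those of E545K and 115, 99.8 and 92.3 in those of H1047R.

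Small differences of synthetases in H1047R were unstable. The calls of CARS1 (0.12 against WT, adjusted p = 0.0368) and EPRS1 (−0.15, adjusted p = 0.0386) were each lost in 8 of the 9 fits that left out 1 library (adjusted p 0.0575 to 0.126 and 0.0565 to 0.106). The fit without H1047R replicate 3 kept that of CARS1 and the fit without H1047R replicate 1 that of EPRS1. The call of CARS1 between the knock-in lines (−0.12, adjusted p = 0.0413) was lost in 8 of the 9 as well (0.0625 to 0.149), all but that without H1047R replicate 1. SARS1 and NARS1 were not called against WT, but without H1047R replicate 3 they were, at 0.19 (adjusted p = 0.000545) and 0.16 (0.00105). Without H1047R replicate 1 WARS1 was called lower than WT, at −0.11 (0.0448), and SARS1 and NARS1 lower than in E545K, at −0.18 (0.000424) and −0.17 (0.00201). Per exon length, EPRS1 was the highest of the 12 in each genotype (86.4 ± 0.342 TPM in WT, 106.2 ± 2.87 in E545K and 55.7 ± 2.18 in H1047R) and CARS1 the lowest.

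**Figure D3:**
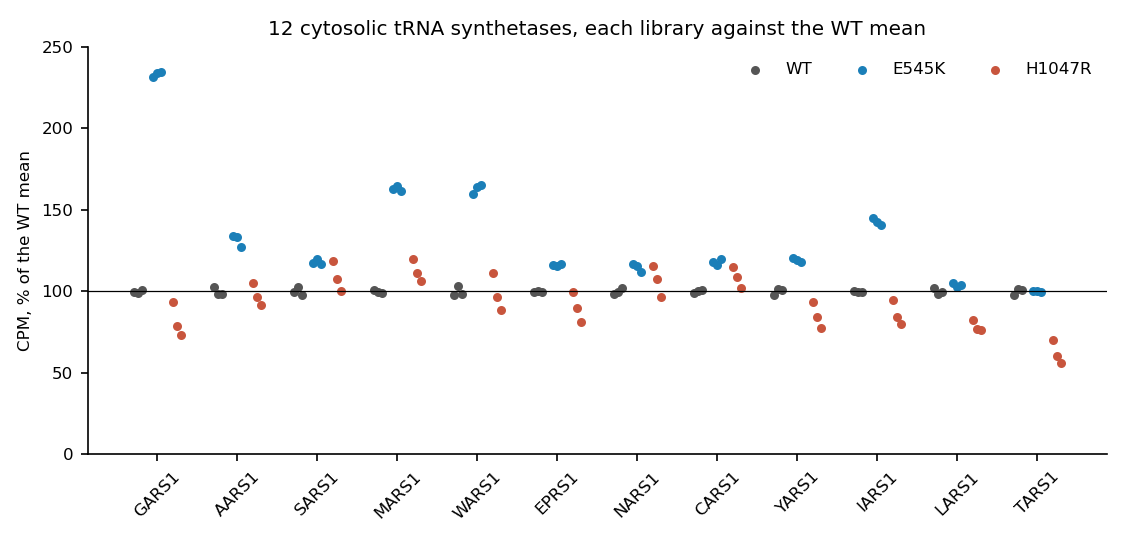
CPM of each of the 12 cytosolic tRNA synthetases in each library as a percentage of that gene's WT mean (vertical axis, from 0; the line marks 100), with 3 points per genotype. E545K libraries lay above the WT libraries for each gene except TARS1, and H1047R libraries spread more widely than those of the other genotypes.

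Of the 38 genes, 3 lie in the regions of chromosomes 7 and 5 that were examined apart. The regions around the other 35 were not examined. GARS1 and PSPH (chr7:56011051-56051604, − strand) lie in the first 60 Mb of chromosome 7, where 428 genes were tested. In E545K 289 of these (67.5%) were called higher than WT and 8 lower, beside 17.7% of all genes called higher. Their median log2 difference was 0.77, beside 0.003 over all genes. GARS1 at 1.22 and PSPH at 1.21 were 0.46 and 0.45 above that median, and 83.6% and 83.2% of the region's genes lay at or below them. The part of the region's shift in the rise of either gene was not tested. In H1047R the region's median was 0.15, beside 0.02 over all genes. There 157 genes were higher and 101 lower, or 60.3% called beside 55.5% of all genes. GARS1 was 0.43 below the region's median and PSPH 0.03 above it. Between the knock-in lines 270 of the 428 genes were lower in H1047R than in E545K and 34 higher (71% called beside 53.2% of all genes, median −0.66). GARS1 and PSPH lay 0.85 and 0.38 below that median, and 9.11% and 22.2% of the region's genes lay at or below them. TARS1 (chr5:33440696-33469539, + strand) lies in the first 50 Mb of chromosome 5, where 227 genes had medians of −0.24 in E545K and −0.34 in H1047R. TARS1 stood 0.24 above the first of these and 0.35 below the second. Without the 3 genes, 22 of the other 35 were called higher and 7 lower in E545K, 11 and 16 in H1047R, and 7 and 24 between the knock-in lines. That is 82.9%, 77.1% and 88.6% called, beside 36.6%, 55.5% and 53.2% of all genes.

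**Figure D4:**
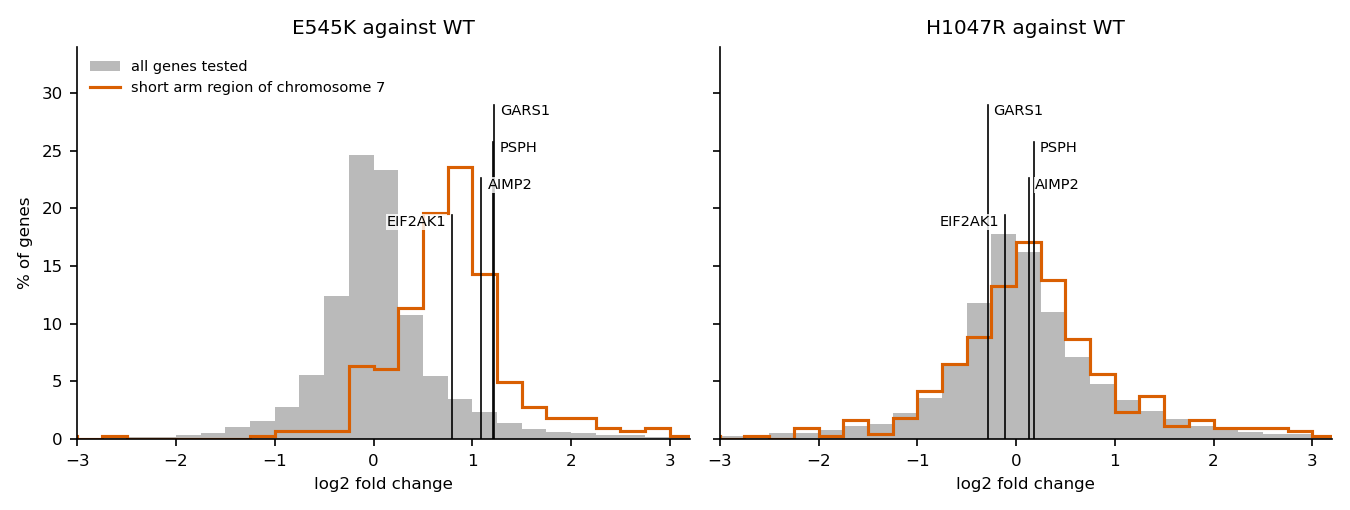
Distribution of log2 fold changes against WT (horizontal axis, limited to −3 to 3.2) over all genes tested (grey) and over the 428 genes of the short arm region of chromosome 7 (orange outline), as a percentage of genes per bin, for E545K (left) and H1047R (right). Vertical lines mark GARS1, PSPH, AIMP2 and EIF2AK1, all in the region, whose median was 0.77 in E545K and 0.15 in H1047R.

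The wider pathway was read from 8 lists of 147 genes that are not among the 38; 146 were found, SAMTOR not being matched, and 144 were tested. In E545K 55 were called higher and 31 lower than WT (59.7% called), in H1047R 37 higher and 75 lower (77.8%), and between the knock-in lines 32 higher and 83 lower in H1047R (79.9%), beside 36.6%, 55.5% and 53.2% of all genes. Among the genes that the stricter filter kept, 57%, 72.7% and 71.1% were called. All genes tested include many with few counts, so the list shares below are to be read beside these values too. Upstream of ATF4, 10 of 23 eIF2 kinases and regulators were higher and 4 lower in E545K (60.9% called), and 5 higher and 8 lower in H1047R (56.5%, near the share of all genes). PPP1R15A (GADD34), the ATF4-induced subunit that directs eIF2 dephosphorylation, averaged 54.5, 121 and 43.7 CPM in WT, E545K and H1047R, so it rose in E545K (1.15 ± 0.044, adjusted p = 5.6e-11) and fell in H1047R (−0.32 ± 0.044, adjusted p = 1.64e-05). EIF2AK4 (GCN2), the eIF2 kinase that senses uncharged tRNA, was lower than WT in both (−0.18 ± 0.038, adjusted p = 0.00201 and −0.53 ± 0.038, adjusted p = 1.73e-08). EIF2AK1 (HRI), the kinase that senses haem, rose in E545K (0.80 ± 0.055, adjusted p = 2.76e-08), and its gene lies in the region of chromosome 7 described above. PPP1CA, a catalytic subunit that partners PPP1R15A, was lower in both, at −0.19 and −0.43, and 27.5% of its exon bases are shared with other genes. The largest rises of the list in H1047R were those of EIF2S1, the eIF2 subunit that the kinases phosphorylate (0.20 ± 0.058, adjusted p = 0.00781), and IMPACT, an inhibitor of GCN2 activation (0.20 ± 0.054, adjusted p = 0.0055), and both were also higher in E545K (0.18 and 0.21). DELE1, which relays mitochondrial stress to HRI, was the 1 gene of the list called higher in H1047R than in E545K (0.13 ± 0.039, adjusted p = 0.0103), where 13 were lower.

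Of 12 further ATF4 targets, 5 were higher and 2 lower in E545K, and 4 higher and 6 lower in H1047R (58.3% and 83.3% called, beside 36.6% and 55.5% of all genes). The shares among genes kept by the stricter filter were 57% and 72.7%. ATF3, a bZIP factor induced by many stresses, held 56.9, 57.3 and 56.4 CPM in the WT libraries, 461, 469 and 470.0 in those of E545K and 38.9, 50.0 and 50.6 in those of H1047R. E545K stood 8.2-fold above WT (3.04 ± 0.079, adjusted p = 1.33e-12) while H1047R was slightly lower (−0.29 ± 0.074, adjusted p = 0.00385). SESN2, a leucine-sensing inhibitor of mTORC1, was higher in both (0.51 and 0.82), as was the secreted stress cytokine GDF15 (0.74 and 0.51). EIF4EBP1, the translational repressor that mTORC1 inactivates, and GADD45A, a DNA damage and stress gene, fell in H1047R (−0.88 ± 0.086, adjusted p = 4.94e-07 and −1.01 ± 0.054, adjusted p = 6.66e-10). JDP2, a bZIP repressor, was lower than WT in both, at −0.52 and −0.22. NUPR1, a small chromatin-associated stress protein, was called lower in E545K (−0.20).

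Of 20 chaperones and sensors of the endoplasmic reticulum, 10 were higher and 1 lower in E545K, and 7 higher and 10 lower in H1047R (55% and 85% called, beside 36.6% and 55.5% of all genes). Genes kept by the stricter filter had shares of 57% and 72.7%. HSPA5 (BiP), the main chaperone of that compartment, averaged 209, 307 and 223 CPM and rose in E545K (0.55 ± 0.066, adjusted p = 9.1e-06). The co-chaperone SDF2L1 rose in E545K too (0.57), and DNAJC3, a co-chaperone that also inhibits eIF2 kinases, fell in E545K and H1047R (−0.27 and −0.11). The sensor ERN1 (IRE1) was higher than WT in E545K and H1047R (0.47 and 0.54) and did not differ between them (0.07, adjusted p = 0.307). The co-chaperone DNAJB9 was also higher in both (0.29 and 0.57). In H1047R the chaperone HSP90B1 (GRP94) and the secreted stress protein MANF were lower (−0.77 and −0.72). ATF6, the membrane-bound factor of the unfolded protein response, was higher in H1047R than in E545K (0.45).

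Of 22 further enzymes of amino acid and folate metabolism that were tested, 8 were higher and 6 lower in E545K, and 5 higher and 15 lower in H1047R (63.6% and 90.9% called, beside 36.6% and 55.5% of all genes). ALDH1L2 and MTHFD1L, of the mitochondrial folate pathway with SHMT2 and MTHFD2, averaged 54.3, 88.9 and 46.9 and 28.1, 41.0 and 16.8 CPM in WT, E545K and H1047R. ALDH1L2 rose in E545K (0.71 ± 0.07, adjusted p = 1.21e-06), and MTHFD1L fell in H1047R (−0.74 ± 0.064, adjusted p = 1.27e-07). TYMS, which uses folate to make thymidylate, was higher in E545K (0.57) and lower in H1047R than in E545K (−0.99). Exons of other genes, ENOSF1 among them, hold 47.5% of its exon bases, so part of its counts may be theirs. GLUL (glutamine synthetase) and GLUD1 (glutamate dehydrogenase) were lower than WT in both knock-in lines, GLUL at −1.16 and −0.67 and GLUD1 at −0.78 and −0.35. PRODH, which degrades proline, was lower in E545K (−0.65) and higher in H1047R (0.71), where the proline-making PYCR1 and ALDH18A1 were lower. ASL, of arginine synthesis, fell in E545K and further in H1047R (−0.43 and −1.20), and ALDH1L1, at 0.117, 0.230 and 0.458 CPM, rose in H1047R.

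Of 17 further transporters that were tested, 6 were higher and 6 lower in E545K, and 6 higher and 9 lower in H1047R (70.6% and 88.2% called, beside 36.6% and 55.5% of all genes). SLC1A3, a glutamate and aspartate carrier, was higher in both (0.77 and 1.15). SLC1A1, another glutamate carrier, averaged 0.922, 2.95 and 0.414 CPM and rose in E545K (1.67). SLC7A7, a light chain of SLC3A2 that exchanges basic amino acids, fell from 1.87 CPM in WT to 0.363 in E545K and 0.230 in H1047R. SLC43A1 and SLC43A2 carry leucine without a heavy chain. SLC43A1 averaged 0.719, 0.125 and 0.0295 CPM and was called lower in both knock-in lines, while SLC43A2 was higher in H1047R than in E545K (0.71). SLC6A14, a carrier of neutral and basic amino acids, held 0.126, 0 and 0.0212 CPM in WT and 0.0140, 0 and 0.00997 in E545K, mostly under the floor of 3 counts (0.0220 to 0.0315 CPM there), and 1.95, 1.21 and 1.09 in H1047R, so no fold is given.

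The remaining tRNA charging genes were counted apart. Of 11 other cytosolic synthetases and scaffold proteins, 6 were higher and 1 lower in E545K, none higher and 6 lower in H1047R, and 11 of 11 were lower in H1047R than in E545K. These are 63.6%, 54.5% and 100% called, beside 36.6%, 55.5% and 53.2% of all genes, so the share in H1047R against WT was near that of all genes. AIMP2, a scaffold of the multisynthetase complex whose gene also lies in the region of chromosome 7, rose by 1.09 ± 0.077 (adjusted p = 3.58e-08) in E545K, and EEF1E1, another scaffold protein, by 0.42. Exons of EIF2AK1 hold 29.1% of the exon bases of AIMP2, so some reads may be counted for both genes. QARS1, the glutamine enzyme, was lower than WT in both (−0.23 and −0.42), and VARS1, the valine enzyme, was lower in H1047R (−0.39). Of 17 mitochondrial synthetases, 4 were higher and 2 lower in E545K (35.3% called, near the share of all genes) and none higher and 12 lower in H1047R (70.6%). In H1047R 55.5% of all genes and 72.7% of those kept by the stricter filter were called. CARS2 (cysteine) was lower in both (−0.71 and −1.04), AARS2 (alanine) higher (0.27) and PARS2 (proline) lower (−0.41) in E545K, and NARS2 (asparagine) lower in H1047R than in E545K (−0.60).

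Amino acid sensors of mTORC1 had the most rises in H1047R of the 8 pathway lists, 10 of 22 tested with 9 lower, beside 6 higher and 9 lower in E545K. Called shares were 86.4% in H1047R and 68.2% in E545K, beside 55.5% and 36.6% of all genes. SESN3, a relative of SESN2, held 18.3, 18.4 and 17.8 CPM in the WT libraries, 62.5, 59.4 and 61.0 in those of E545K and 119, 131 and 119.6 in those of H1047R, which gives log2 differences of 1.75 ± 0.048 (adjusted p = 1.82e-12) in E545K and 2.76 ± 0.049 (adjusted p = 5.54e-15) in H1047R. CASTOR1, the arginine sensor that inhibits mTORC1, averaged 6.65, 8.18 and 24.4 CPM and rose most in H1047R (1.87 ± 0.059, adjusted p = 1.6e-12), whereas its relative CASTOR2 was lower than WT in both (−0.76 and −0.79). Among the Rag GTPases that dock mTORC1 on the lysosome, RRAGD was higher than WT in both lines (0.76 and 0.65). RRAGB was lower in E545K (−0.31) and higher in H1047R (0.29), and RRAGA was lower in H1047R than in E545K (−0.50). MLST8, a subunit of mTORC1, fell in E545K and further in H1047R (−0.25 and −0.61).

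**Figure D5:**
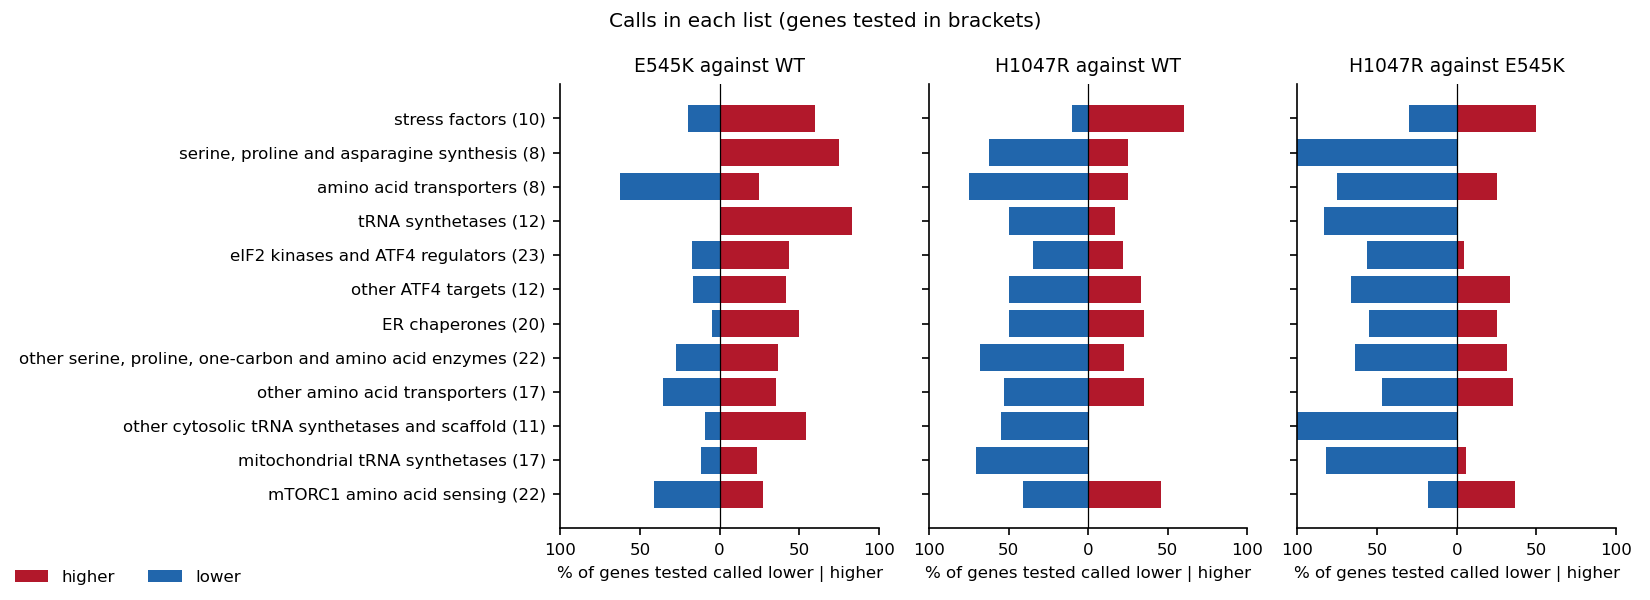
Share of the genes tested in each list that were called higher (red, to the right of 0) or lower (blue, to the left), in percent, for the 3 comparisons. The first 4 rows are the 38 genes by role and the other 8 rows are the pathway lists, with the number of genes tested in brackets. Called shares over all genes tested were 17.7% higher and 18.9% lower in E545K against WT, 27.4% and 28.1% in H1047R against WT, and 25.9% and 27.3% between the knock-in lines.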

How the data were processed

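Libraries of ribosome-depleted RNA were sequenced as paired 150 bp reads, per the labels' protocols. The deposited values are whole read counts per gene; per the file headers they were made with featureCounts 2.0.0 on exons of GENCODE 32 (hg38), ignoring strand, counting each mate by itself and counting reads over several genes for each of them. Overlapping and antisense genes therefore share reads. STAR, cutadapt, FastQC, SAMtools 1.5 and Trim Galore 0.4.0 are listed in the submitters' processing notes. WT and E545K share 1 table and H1047R has another.

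From the counts, CPM with TMM scaling and 1 quasi-likelihood model of genotype over the 9 libraries were computed with edgeR 4.0.16 (R 4.3.3), with filterByExpr at its defaults and Benjamini-Hochberg adjustment over 26412 genes; standard errors are the log2 fold change divided by the square root of F, and TPM used the tables' exon lengths. A count of 0 allows up to 3 counts, or 0.0220 to 0.0315 CPM in WT and E545K and 0.00495 to 0.00796 in H1047R, covering counting error only. Gene identifiers were matched without version to GENCODE 44 names (60295 matched, 314 not). The biological coefficient of variation was 0.0328 in WT, 0.0285 in E545K, 0.219 in H1047R and 0.118 over the model. The method was tested on simulated counts. The text names the 38 genes and, from each pathway list, up to 2 largest rises and 2 largest falls among the genes called per comparison; a gene this rule picks is not reported here. The 38 genes, lists and tests were chosen with earlier results of these data known. Alternatives were other scalings (DESeq2 size factors, upper quartile, library totals), filters, DESeq2 1.42.0, only the 2 genotypes compared, a replicate block, thinned H1047R counts and leaving out each library.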

Additional observations from a re-analysis of the deposited data

How the results depend on the processing

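Of the counts of the 38 genes called, those higher in H1047R than in E545K moved by over 1.5 times under library totals alone, to 4 from 7; this scaling moved the median of all genes in that comparison from 0.016 to −0.12. Leaving out each library in turn gave 27 to 35 called in E545K against WT (20 to 28 higher, 7 lower), 26 to 33 in H1047R against WT (10 to 16 higher, 16 to 19 lower) and 33 to 36 between the knock-in lines (7 higher, 26 to 29 lower). Over all genes tested in these fits the called shares were 29.1% to 42.8%, 48.2% to 59% and 45.5% to 57.2%, in the same order. Replicate numbers did not pair the libraries: correlations of same-numbered libraries' deviations were −0.0348 to 0.0227, 0 of 9 over 0.1, beside −0.0245 to 0.0418 for other numbers, and a library correlated best with its own number in 5 of 18 cases. With the replicate block 31, 29 and 33 of the 38 were called, beside 31, 30 and 34 without it. Of all genes, 35.7%, 54.5% and 52% were called with the block and 36.6%, 55.5% and 53.2% without it. Fits of only the 2 genotypes compared called 29 higher and 8 lower in E545K against WT. They called 10 and 18 in H1047R against WT, and 7 and 26 between the knock-in lines. Of all genes tested in these fits, 53.1%, 49.3% and 45.6% were called. No called gene of the 38 changed direction under any of the 18 alternatives, and 4, 5 and 4 lost their call under at least 1 in E545K against WT, H1047R against WT and H1047R against E545K. With library totals these included CEBPB (0.05), CEBPG (0.03) and SLC6A9 (0.11) between the knock-in lines. Differences that were not called changed sign in some settings. Against WT in H1047R, ATF4, AARS1 and WARS1 came to 0.0361, 0.0209 and 0.0347 with upper-quartile scaling, 0.0162, 0.000455 and 0.0155 with no filter, and 0.022, 0.00673 and 0.0208 with the stricter filter, and leaving out 1 library gave −0.0636 to 0.0454, −0.0876 to 0.0172 and −0.108 to 0.0589. ASNS came to −0.0146 with library totals, and to −0.0603 to 0.137 with 1 library left out. Between the knock-in lines CHAC1 and STC2 came to −0.0879 and −0.0951 with library totals, and to −0.0226 to 0.173 and −0.0881 to 0.117 with 1 library left out. TARS1 in E545K came to −0.00761 with no filter and to −0.0169 to 0.00817 with 1 library left out. The causes were not tested.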
